A study of Saccharomyces cerevisiae with 25 samples.

Results

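The 8 transcripts described here encode yeast enzymes that break down polyphosphate, that build or remove inositol pyrophosphates, or that make their precursor. They were chosen by gene name, with no measured value in the choice, and are 8 of the 6648 named rows of the table. PPN1 and PPX1 are polyphosphatases. PLC1, ARG82 and IPK1 lead from a membrane phosphoinositide to inositol hexakisphosphate, KCS1 and VIP1 are the kinases that add the pyrophosphate group, and DDP1 is a phosphatase that removes it. The RNA came from Saccharomyces cerevisiae of the BY4741 background (genotype pho84pr-YFP, phm3 damp), a haploid of mating type a in which yellow fluorescent protein is driven by the PHO84 promoter. All libraries, that at 0 min included, carry the DAmP allele of PHM3, now named VTC4, an allele type that usually lowers a transcript by disturbing its 3′ end. Cells still in high phosphate medium gave 1 library, at 0 min, and the other 24 were taken at 15 min intervals from 15 to 360 min after transfer to medium without phosphate. These 24 were read as 4 windows of 6 consecutive samples, 15 to 90, 105 to 180, 195 to 270 and 285 to 360 min. Whether the strain was 1 clone and whether any samples came from separate cultures is not given in the labels. Each p-value therefore rests on how far neighbouring time points differ, within a group of times or about a fitted curve. This spread may be technical, and within a group of times it also holds any change with time.

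Yeast stores phosphate as polyphosphate, long chains held mainly in the vacuole. The VTC complex makes the chains, and polyphosphatases cut them and release phosphate. Inositol pyrophosphates are small signalling molecules that are bound by the SPX domains of phosphate-handling proteins, the VTC complex among them, and their amount in the cell is known to follow the phosphate supply. Plc1, phospholipase C, cuts a phosphoinositide to inositol trisphosphate, Arg82 and Ipk1 add phosphates up to inositol hexakisphosphate, and Kcs1 and Vip1 add the pyrophosphate at different positions of the ring. Ddp1 hydrolyses the pyrophosphate bond and can also cut polyphosphate. Only RNA was measured here, not enzymes, polyphosphate or inositol phosphates.

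Depth, recovered from the step of the values, was 4.27 M reads (1 M being 1000000) at 0 min, 0.748 to 2.97 M reads from 15 to 90 min and 0.147 to 0.781 M reads from 285 to 360 min. The shallowest library was that at 345 min. The 6 genes that mark mating type a were each detected in at least 24 of the 25 libraries, and of the alpha-specific genes MF(ALPHA)2 had no value in any and MF(ALPHA)1 in 8, of at most 3.30 log2 RPM, the log2 of a gene's reads per 1000000 reads. STE3, an alpha-specific receptor gene, had values in 23 libraries, with a median of 4.94 log2 RPM against 8.77 for its a-specific counterpart STE2. HIS3, LEU2, MET17 and URA3 are all deleted in BY4741. HIS3, LEU2 and MET17 had no value in any library. URA3 went the other way, with a value in 13 libraries, a median of 3.25 and a highest value of 4.71 log2 RPM. The source of the URA3 reads is not given in the labels and was not tested. VTC4 was detected in all 25 libraries. No library without the allele was analysed here, so its effect on VTC4 was not measured.

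The promoters of DDP1, VIP1 and PLC1 are shown as examples that hold letters bound by Pho4, the transcription factor of the phosphate response. ARG82 holds such letters too and is not shown. All promoters were read from the RefSeq copy of build R64, from 250 bases before to 50 bases after the coding start. CACGTG was found in 2.91% of the 6020 promoters of this length, CACGTT in 9.10% and AGGGG, the stress response element, in 21.6%, each searched on both strands with no overlap between the matches found here. Capitals mark the matches.
DDP1 promoter, chrXV:642491-642790, plus strand: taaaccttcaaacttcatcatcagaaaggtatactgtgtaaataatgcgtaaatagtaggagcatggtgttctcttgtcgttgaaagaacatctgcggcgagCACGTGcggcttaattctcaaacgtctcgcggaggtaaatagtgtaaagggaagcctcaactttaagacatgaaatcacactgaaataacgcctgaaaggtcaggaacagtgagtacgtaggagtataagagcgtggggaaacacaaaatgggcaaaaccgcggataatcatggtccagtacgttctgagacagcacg
VIP1 promoter, chrXII:937291-937590, plus strand: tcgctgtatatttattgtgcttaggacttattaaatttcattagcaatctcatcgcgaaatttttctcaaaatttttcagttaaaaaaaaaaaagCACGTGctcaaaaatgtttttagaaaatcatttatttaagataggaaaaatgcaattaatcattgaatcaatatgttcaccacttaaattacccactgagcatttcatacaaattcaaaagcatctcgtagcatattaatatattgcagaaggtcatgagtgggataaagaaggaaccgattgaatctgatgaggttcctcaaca
PLC1 promoter, chrXVI:34986-35285, plus strand: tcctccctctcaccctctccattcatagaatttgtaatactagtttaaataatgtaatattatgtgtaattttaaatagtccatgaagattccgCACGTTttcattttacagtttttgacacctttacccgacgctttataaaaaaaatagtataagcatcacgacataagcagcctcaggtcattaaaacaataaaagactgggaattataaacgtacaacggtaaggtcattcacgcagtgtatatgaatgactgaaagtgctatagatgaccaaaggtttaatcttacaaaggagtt
The match in the DDP1 promoter began 148 bases before the coding start, that in VIP1 155 bases and that in PLC1 156 bases before it. Of the other members, ARG82 held CACGTT 234 bases before its start, PPN1 held AGGGG at 28 bases and KCS1 held AGGGG on the opposite strand at 245 bases. None of the 3 motifs was in the PPX1 or IPK1 window. Among the members DDP1, VIP1, PLC1 and ARG82 thus held CACGTG or CACGTT, as did 11.8% of all promoters searched. Inside the coding sequences, CACGTG was found in DDP1 at base 47, where the printed window ends within it, in IPK1 at base 733 and in KCS1 at 2 places. KCS1 held none in its promoter window, and both of its coding stretches are shown because Pho4-dependent RNAs that start inside KCS1, antisense RNA among them, are known from the literature.
KCS1 coding stretch near the start, chrIV:481827-481892, minus strand: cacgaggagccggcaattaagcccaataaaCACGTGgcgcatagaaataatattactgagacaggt
KCS1 coding stretch further in, chrIV:480840-480905, minus strand: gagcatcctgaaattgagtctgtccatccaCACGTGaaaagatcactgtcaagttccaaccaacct
The KCS1 matches began at bases 406 and 1393 of the 3153 coding bases. CACGTG was found in the body of 21.5% of the 535 genes of at least 3000 bases, and in 8.79% of all 6021 protein-coding genes. CACGTT was found inside KCS1 at bases 1127, 2534 and 2750, PPX1 at 1027, ARG82 at 1018 and PLC1 at 1939. Its share over all coding sequences was not taken. A match is a run of letters and not a measured binding site. Whether reads were counted by strand is not given in the sources used here, so sense, antisense and internal RNA of KCS1 cannot be told apart in the values that follow.

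Across the course without phosphate, 6 of the 8 transcripts varied and 2, PPX1 and ARG82, did not pass the test. The test was a moderated F-test on a smooth curve of time over the 24 samples (limma, natural cubic spline with 4 degrees of freedom), and a gene was called at an adjusted p under 0.05 and a fitted range of at least 1 log2 unit. By this rule 39.7% of the 4742 tested genes were called. The fitted ranges were 2.09 for PLC1, 2.05 for KCS1, 1.77 for IPK1, 1.74 for DDP1, 1.15 for VIP1 and 1.15 for PPN1 (limma adjusted p of 1.02e-10, 1.41e-08, 0.000985, 1.44e-08, 2.88e-05 and 7.19e-07 in that order). PPX1 had a fitted range of 0.44 and ARG82 one of 0.81 (limma adjusted p = 0.437 and 0.405). PLC1, KCS1 and DDP1 kept their calls under every other setting run, whereas those of PPN1, VIP1 and IPK1 were lost after centring, that is, after the median of the tested genes was subtracted from each library, with ranges of 0.63, 0.74 and 0.96, and PPX1 was then called, with a range of 1.17. Quantile normalization did the same, with ranges of 0.74 for PPN1, 0.75 for VIP1, 0.77 for IPK1 and 1.06 for PPX1. PPN1 also lost its call with every second sample (0.99), with 3 degrees of freedom (0.91) and without the library at 360 min (0.97).

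**Figure D1:**
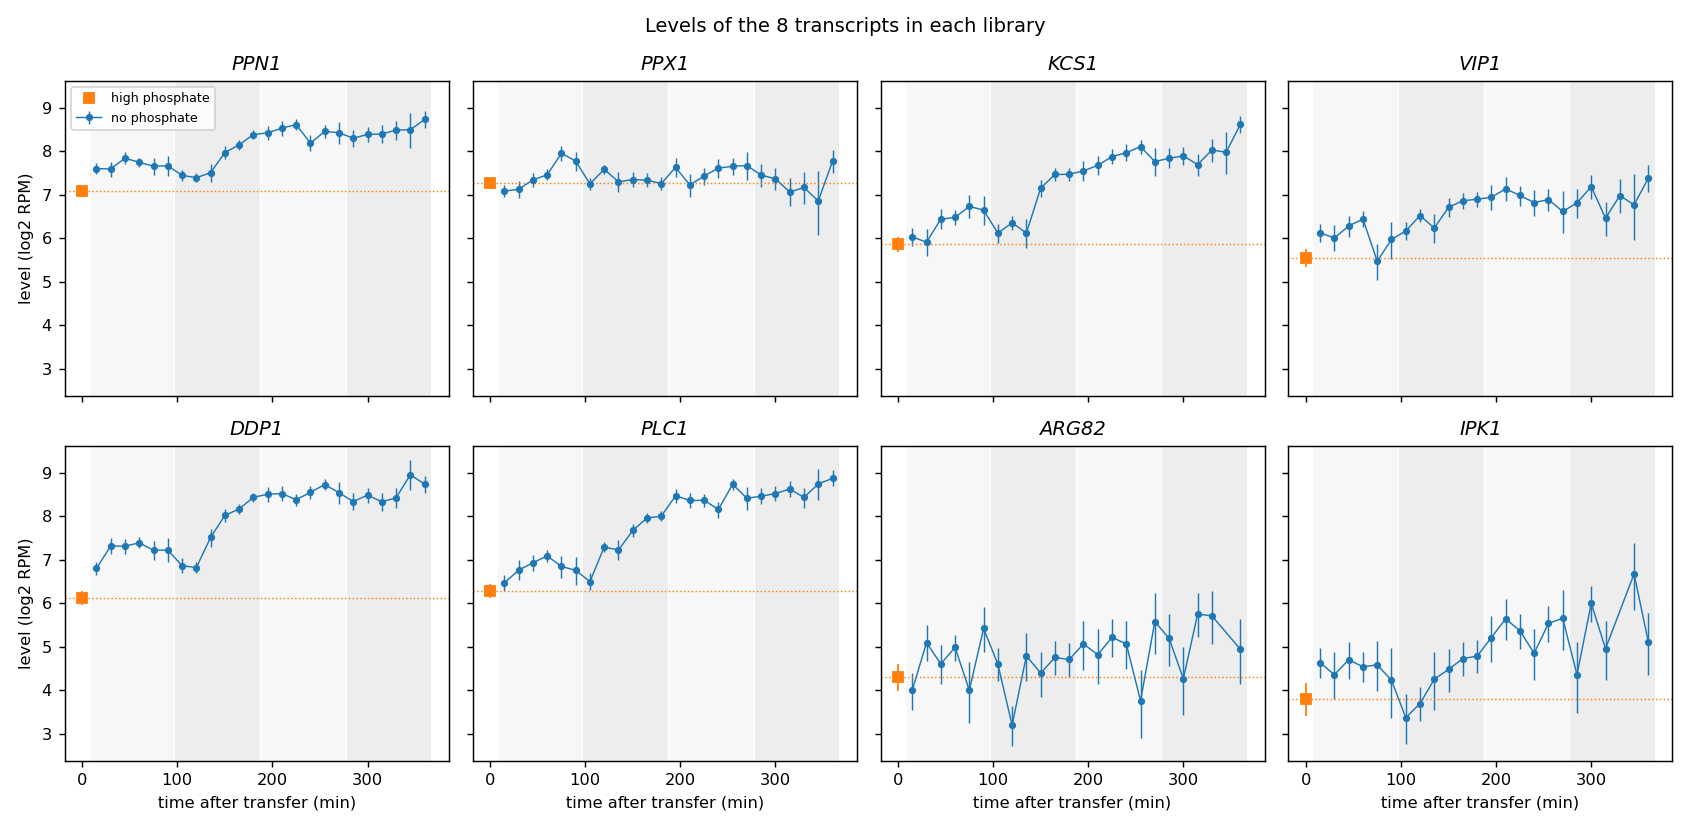
Level of each of the 8 transcripts in log2 RPM against time after transfer in min, with 1 point per library; the orange square and dotted line are the single high-phosphate library, bars are 95% exact counting intervals, and shaded bands are the 4 windows. PPN1, KCS1, VIP1, DDP1 and PLC1 lie higher from 285 to 360 min than at any time from 15 to 90 min, PPX1 stays between 6.86 and 7.96, and ARG82 and IPK1 have wide bars.

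The first 90 min were set against 0 min to ask what changed soon after phosphate was withdrawn. None of the 8 transcripts was called in this comparison, where 0.148% of all tested genes were called, 0.127% as higher and 0.0211% as lower (7 of 4742 in limma, and also 7 with voom weights). In limma 210 genes had an unadjusted p under 0.05, PPN1 and DDP1 among them. DDP1 was at 6.80, 7.27 and 7.39 log2 RPM (lowest, median and highest of 15 to 90 min), against 6.13 at 0 min (95% exact counting interval 5.96 to 6.29). Its difference of 1.08 ± 0.40 SE did not pass after adjustment (limma adjusted p = 0.920), and it passed at 0.0297 in limma when the libraries at 105, 120 and 135 min, which enter the shared spread, were left out. PPN1 lay at 7.59, 7.66 and 7.84, against 7.09 at 0 min (difference 0.59 ± 0.28 SE, limma adjusted p = 0.920). All 6 samples of this window lay above the 0 min value for PPN1, DDP1, KCS1, IPK1 and PLC1. That is 5 of 8 members, and it was so for 25.6% of all tested genes. The 0 min level rests on 1 library, and its error enters each of these differences.

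A shorter comparison bears on the middle of the course, between spans of 3 samples that were chosen with earlier results of these data known. The p-values of these spans therefore do not rest on times picked beforehand. The libraries at 105, 120 and 135 min were set against those at 30, 45 and 60 min, and then the libraries at 195, 210 and 225 min against those at 105, 120 and 135 min (n = 3 each). None of the 8 transcripts was called in the first of these, where 1.77% of all tested genes were, 0.148% as higher and 1.62% as lower (84 genes, and 117 with voom weights), and in limma 849 genes and 0 members had an unadjusted p under 0.05. IPK1 had 3.37, 3.69 and 4.25 log2 RPM at 105, 120 and 135 min, against 4.36, 4.70 and 4.54 at 30, 45 and 60 min (difference −0.76 ± 0.37 SE, limma adjusted p = 0.288). DDP1 had 6.87, 6.82 and 7.52, against 7.32, 7.31 and 7.39, so that 2 of the 3 later samples lay under all 3 earlier ones (−0.27 ± 0.18 SE, limma adjusted p = 0.479). KCS1 differed by −0.08 ± 0.19 SE (95% interval −0.47 to 0.32, limma adjusted p = 0.884) and PLC1 by 0.08 ± 0.20 SE (limma adjusted p = 0.885).

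In the second of these comparisons 5 of the 8 rose, namely PPN1, DDP1, KCS1, IPK1 and PLC1, while 20.9% of all tested genes were called, 14.4% as higher and 6.54% as lower. KCS1 had 7.55, 7.68 and 7.88 log2 RPM at 195, 210 and 225 min, against 6.12, 6.36 and 6.12 at 105, 120 and 135 min, a 2.84-fold rise (1.51 ± 0.19 SE, limma adjusted p = 4.77e-06). The largest step of KCS1 between neighbouring no-phosphate samples, 1.03 log2 units, fell between 135 and 150 min, where the median of all tested genes moved by 0.09. DDP1 had 8.51, 8.53 and 8.38, against 6.87, 6.82 and 7.52 (2.65-fold, 1.41 ± 0.18 SE, limma adjusted p = 5.38e-06). PLC1 had 8.48, 8.37 and 8.37, against 6.50, 7.30 and 7.23 (2.63-fold, 1.40 ± 0.20 SE, limma adjusted p = 1.46e-05). PPN1 had 8.43, 8.54 and 8.62, against 7.45, 7.39 and 7.51, a rise of 1.08 ± 0.15 SE (limma adjusted p = 9.66e-06) that was 0.70, under the fold threshold, after centring. IPK1, the kinase that makes inositol hexakisphosphate, had 5.21, 5.64 and 5.36, against 3.37, 3.69 and 4.25 (3.11-fold, 1.64 ± 0.37 SE, limma adjusted p = 0.0013). VIP1 differed by 0.71 ± 0.20 SE and did not reach the fold threshold (limma adjusted p = 0.00652), ARG82 by 0.84 ± 0.46 SE (limma adjusted p = 0.139) and PPX1 by 0.05 ± 0.19 SE (limma adjusted p = 0.839). ARG82 was called with voom weights (1.07, limma adjusted p = 0.0378), and its difference was 0.34 without the library at 120 min and 1.14 without that at 135 min. After centring, 40.6% of all calls in this comparison were rises, against 68.8% as deposited.

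Between neighbouring whole windows, calls were made only for 195 to 270 against 105 to 180 min. In limma 0 genes were called for 105 to 180 against 15 to 90 min and 0 for 285 to 360 against 195 to 270 min, with 234 and 610 genes at an unadjusted p under 0.05, 2 members (VIP1 and PLC1) among the first and 0 among the second, and 0 calls with voom weights in both. The window of 105 to 180 min holds the low samples up to 135 min and the higher ones from 150 min, and the SD of KCS1 within it was 0.66, against 0.33 from 15 to 90 min. For 195 to 270 against 105 to 180 min 8.31% of all genes were called, 5.08% as higher and 3.23% as lower, and 2 members rose, KCS1 (1.04 ± 0.23 SE, limma adjusted p = 0.00139) and IPK1 (1.16 ± 0.29 SE, limma adjusted p = 0.00441). In KCS1, IPK1 and PLC1 each sample of 195 to 270 min lay above each of 105 to 180 min, as in 8.65% of all tested genes. Both calls were lost after centring, where the differences were 0.72 and 0.84, and the share of rises among all calls was then 31.1%, against 61.2% as deposited. KCS1 lost its call without the library at 105 min (0.91), 120 min (0.96), 135 min (0.91) or 255 min (0.99), and IPK1 without that at 105 min (0.99). PLC1 (0.98 ± 0.19 SE, limma adjusted p = 0.000449) and DDP1 (0.90 ± 0.21 SE, limma adjusted p = 0.00275) missed the fold threshold here. They passed it without the library at 165 min (1.08 and 1.01) or 180 min (1.09 and 1.06), and PLC1 also without that at 150 min (1.02) or 240 min (1.03). With every second sample PLC1 (1.30, limma adjusted p = 0.0157) and DDP1 (1.02, limma adjusted p = 0.0419) were called and IPK1 was not (1.25, limma adjusted p = 0.0807).

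**Figure D2:**
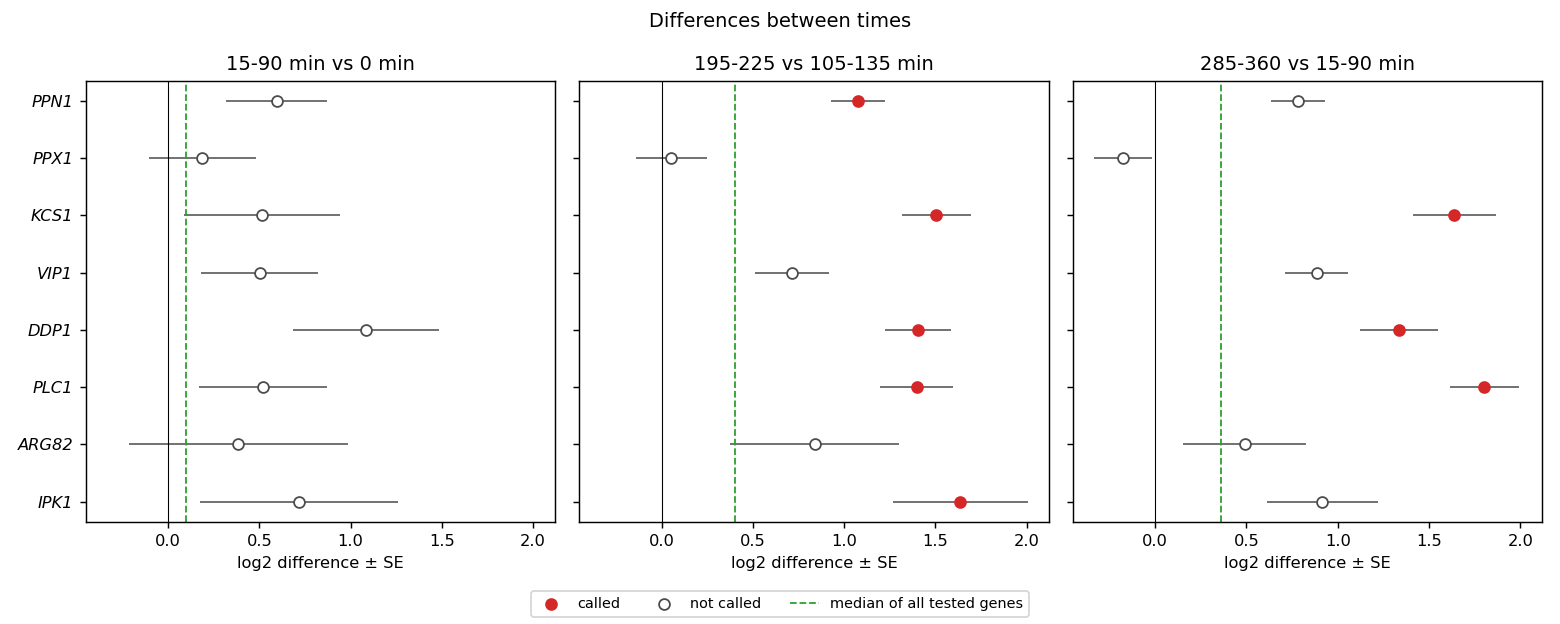
Log2 difference with its SE for each transcript in 3 comparisons, the later time minus the earlier; filled points were called, open ones were not, and the dashed line is the median of all 4742 tested genes. No point is filled for 15 to 90 min against 0 min, 5 are for 195 to 225 against 105 to 135 min, and 3 are for 285 to 360 against 15 to 90 min.

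Late starvation was compared with its first 90 min. PLC1, KCS1 and DDP1 rose and none of the 8 fell, while 16.3% of all tested genes were called, 12.9% as higher and 3.4% as lower. The median difference of the 8 was 0.90 log2 units and that of all tested genes 0.36. In 5 of the 8, PPN1, DDP1, KCS1, VIP1 and PLC1, each late sample lay above each early one, as did 24.3% of all tested genes. Values are shares of all reads, so a rise of a transcript and a fall of other RNA cannot be told apart. Nor can a change within cells be told from a change in the mixture of cells. Over all tested genes 610 were higher and 161 lower. After centring on the sample medians, 42.3% of the calls were rises, against 79.1% as deposited.

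PLC1, the single phospholipase C of yeast and the entry to the soluble inositol phosphates (YPL268W, chromosome XVI, 35236 to 37845, plus strand), had the largest difference of the 8. Its level from 285 to 360 min was 8.44, 8.58 and 8.88 log2 RPM (lowest, median and highest), against 6.47, 6.81 and 7.09 from 15 to 90 min. The windows were separated by more than 1 log2 unit, and the rise was 3.49-fold (1.80 ± 0.19 SE, n = 6 each, limma adjusted p = 7.94e-08). It ranked 108 among the 4742 tested genes by the size of its rise. The call held in all 36 alternative settings, in which the difference lay between 1.28 and 1.87. Some of these settings left out only libraries of neither window, which cannot move the difference. PLC1 was 6.29 at 0 min, lay at 7.30 at 120 min and at 8.01 at 180 min, and its largest single step, 0.80 log2 units, was between 105 and 120 min.

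KCS1, an inositol hexakisphosphate kinase (YDR017C, IV, 479115 to 482267, minus strand), lay at 7.69, 7.94 and 8.63 from 285 to 360 min, against 5.91, 6.46 and 6.73 from 15 to 90 min. The rise was 3.11-fold (1.64 ± 0.23 SE, n = 6 each, limma adjusted p = 3.26e-06) and held in all 36 settings, between 1.12 and 1.71. VIP1, the other kinase (YLR410W, XII, 937541 to 940981, plus strand), lay at 6.46, 6.90 and 7.38, against 5.47, 6.06 and 6.44. The windows of VIP1 did not overlap but lay close together, and its difference of 0.88 ± 0.17 SE did not reach the fold threshold (limma adjusted p = 0.000179). It was 0.36 after centring (limma adjusted p = 0.147).

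DDP1, a phosphatase of the inositol pyrophosphates (YOR163W, XV, 642741 to 643307, plus strand), lay at 8.34, 8.46 and 8.96, against 6.80, 7.27 and 7.39. Its rise of 2.53-fold (1.34 ± 0.21 SE, n = 6 each, limma adjusted p = 1.75e-05) was reduced to 0.82 after centring, under the fold threshold, with a limma adjusted p of 0.00119. Reads per kb of coding sequence set levels of different genes side by side only if reads grow with coding length, which was not tested. In log2 RPM DDP1 had the highest mean of the 8 only from 195 to 270 min (8.54). PPN1 was highest from 15 to 90 min (7.69, DDP1 7.21) and from 105 to 180 min (7.81, DDP1 7.64), and PLC1 from 285 to 360 min (8.61, DDP1 8.55). Per kb DDP1 was the highest of the 8 in each no-phosphate window, at 9.37 ± 0.25 log2 RPM per kb from 285 to 360 min, where KCS1 was at 6.35 ± 0.32 and VIP1 at 5.15 ± 0.33 (SD, n = 6 each). At 0 min PPX1 (7.01) and DDP1 (6.95) were highest and VIP1 (3.77) lowest.

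Within each library the scaling cancels, so the pairs can be read without it. KCS1 exceeded VIP1 by 0.83 to 1.37 log2 RPM per kb from 285 to 360 min, against 0.03 to 1.39 from 15 to 90 min. The ranges overlapped through the early library at 75 min, in which VIP1 had its lowest no-phosphate level, 5.47 log2 RPM from 50 reads. KCS1 minus DDP1 averaged −3.01 ± 0.29 log2 RPM per kb late and −3.31 ± 0.33 early, and the ranges overlapped. VIP1 minus DDP1 averaged −4.22 ± 0.35 late and −3.76 ± 0.37 early, again with overlap (SD, n = 6 each). These differences between members were not tested.

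**Figure D3:**
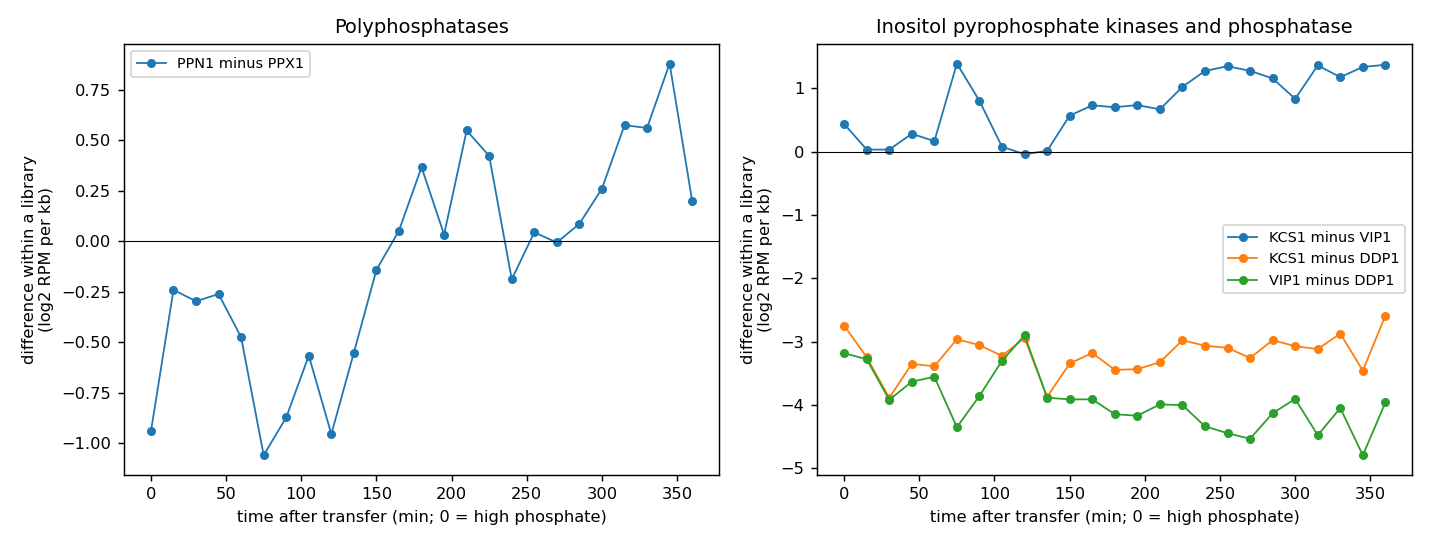
Difference between 2 transcripts of the same library in log2 RPM per kb of coding length, against time after transfer in min, with 0 min in high phosphate; left, PPN1 minus PPX1, and right, the pairs of KCS1, VIP1 and DDP1. PPN1 minus PPX1 is below 0 in every library up to 150 min and between 0.09 and 0.88 from 285 to 360 min, and KCS1 minus DDP1 stays between −3.89 and −2.59.

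PPN1 and PPX1 act on the same polymer in different compartments. PPN1, a vacuolar polyphosphatase (YDR452W, IV, 1362878 to 1364902, plus strand), lay at 8.30, 8.45 and 8.73 log2 RPM from 285 to 360 min. From 15 to 90 min it lay at 7.59, 7.66 and 7.84. The windows did not overlap, and the difference of 0.78 ± 0.15 SE missed the fold threshold (limma adjusted p = 0.000126) and was 0.26 after centring (limma adjusted p = 0.185). PPX1, the cytosolic exopolyphosphatase (YHR201C, VIII, 499950 to 501143, minus strand), lay at 6.86, 7.27 and 7.77, against 7.08, 7.40 and 7.96, so its windows overlapped over most of their range. Its difference was −0.18 ± 0.16 SE (95% interval −0.50 to 0.15, limma adjusted p = 0.368), in the lower 13.5% of all tested genes, and −0.70 after centring (limma adjusted p = 0.00901). Per kb PPN1 lay above PPX1 by 0.43 ± 0.30 late and below it early, at −0.53 ± 0.35 (SD, n = 6 each), with −0.94 at 0 min. The late and early ranges of this difference, 0.09 to 0.88 and −1.06 to −0.24, did not overlap. Its sign rests on coding length, since in log2 RPM the mean of PPN1 was above that of PPX1 in both windows (8.47 and 7.28 late, 7.69 and 7.46 early).

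ARG82 and IPK1, the kinases between Plc1 and inositol hexakisphosphate, had the fewest reads of the 8. ARG82 (YDR173C, IV, 810565 to 811632, minus strand) was counted with 15 to 94 reads per library and IPK1 (YDR315C, IV, 1092741 to 1093586, minus strand) with 14 to 73. IPK1 lay at 4.35, 5.11 and 6.68 from 285 to 360 min in 5 samples, against 4.23, 4.56 and 4.70 in the 6 samples from 15 to 90 min, and the windows overlapped. Its difference was 0.91 ± 0.30 SE (limma adjusted p = 0.0154), and over all alternatives it ran from 0.22 with quantile normalization to 1.18 without the library at 285 min. It was called without the library at 285 min or 315 min (1.03), and was 0.60 without that at 345 min (limma adjusted p = 0.0747) and 0.37 after centring. The library at 330 min had under 10 reads of IPK1, which puts its level below 4.45 and was left out of the mean, and with missing values set to 5 reads the difference was 0.59 (limma adjusted p = 0.186). ARG82 lay at 4.26, 5.19 and 5.75 in 5 samples, against 3.99, 4.79 and 5.42 in 6, a difference of 0.49 ± 0.34 SE (95% interval −0.20 to 1.18, limma adjusted p = 0.236). With every second sample ARG82 was called (1.27, limma adjusted p = 0.0316), and with quantile normalization its difference was −0.015. The library at 345 min had no value of ARG82, which there allows a level of up to 6.09.

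**Figure D4:**
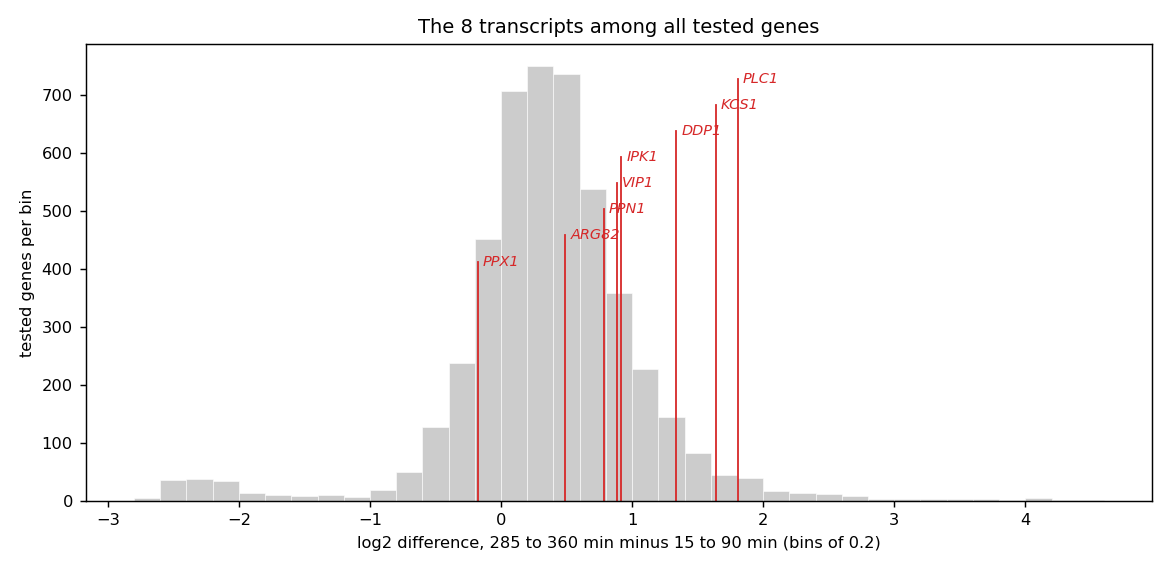
Number of tested genes per bin of 0.2 in the log2 difference of 285 to 360 min minus 15 to 90 min, with the 8 transcripts marked by red lines whose height has no meaning. PLC1, KCS1 and DDP1 lie in the upper tail at 1.80, 1.64 and 1.34, while PPX1 at −0.18 is the only one of the 8 below 0.

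Against 0 min, late samples were higher in 6 members, while 24.1% of all tested genes were called, 20.1% as higher and 4.05% as lower. In these 6 all late samples with a value lay above the 0 min library, as in 54.6% of all tested genes. For IPK1 these were 5 samples, since the library at 330 min had under 10 reads of it, a limit of 4.45 log2 RPM that lies above the 0 min level of 3.79. The rises were 5.36-fold for DDP1 (2.42 ± 0.40 SE), 5.01-fold for PLC1 (2.33 ± 0.35), 4.45-fold for KCS1 (2.15 ± 0.43), 3.10-fold for IPK1 (1.63 ± 0.55), 2.61-fold for VIP1 (1.39 ± 0.32) and 2.60-fold for PPN1 (1.38 ± 0.28), with limma adjusted p of 0.000198, 8.49e-05, 0.000914, 0.0273, 0.00263 and 0.00105 in that order. The median of all tested genes was itself 0.47 higher. After centring, DDP1 (1.75), PLC1 (1.66) and KCS1 (1.49) were still called and IPK1 (0.94), VIP1 (0.72) and PPN1 (0.71) were not. The IPK1 call was also lost with missing values set to 5 reads (1.30, limma adjusted p = 0.152), with every second sample (1.54, limma adjusted p = 0.113) and with quantile normalization (0.64, limma adjusted p = 0.307). Quantile normalization also ended the calls of VIP1 (0.69) and PPN1 (0.99). PPX1 differed by 0.01 ± 0.29 SE (95% interval −0.60 to 0.62, limma adjusted p = 0.984) and ARG82 by 0.87 ± 0.61 SE (limma adjusted p = 0.277). This comparison shares the 0 min library with that of the first 90 min and the late samples with the preceding one. Centring moved the share of rises among all calls to 43.0%, against 83.2% as deposited.

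Other genes of these pathways were read in the comparison of 285 to 360 with 15 to 90 min. Of all tested genes 12.9% were called higher there and 3.4% lower, with a median difference of 0.36. Of 6 genes for polyphosphate synthesis and other breakdown 4 rose, 0 fell and 2 did not pass, with a median difference of 1.21. YNL217W, annotated as PPN2, rose by 1.45 ± 0.16 SE, YDR089W, annotated as VTC5, by 1.40 ± 0.25, VTC4 by 1.37 ± 0.33 and VTC1, a small subunit of the VTC complex, by 1.06 ± 0.20 (limma adjusted p of 1.32e-07, 6.65e-05, 0.00149 and 0.000139). All libraries carry the DAmP allele of VTC4, whose effect on that transcript was not measured. Of 10 SPX-domain proteins 3 rose and 0 fell, with a median of 0.83, and VTC4 and YDR089W were joined there by GDE1, a glycerophosphodiesterase (1.93 ± 0.28, limma adjusted p = 5.41e-06). Of 13 tested genes of inositol and phosphoinositide supply 3 rose and 0 fell, with a median of 0.48. INM2 and INM1, the inositol monophosphatases, rose by 1.55 ± 0.24 and 1.20 ± 0.28, and FAB1, which makes a phosphoinositide of the vacuole membrane, by 1.03 ± 0.16 (limma adjusted p of 1.44e-05, 0.00103 and 1.42e-05). SIW14, another inositol pyrophosphate phosphatase, and the OCA genes listed with it were 6 in all, and none was called (limma; median 0.55, range 0.38 to 0.83). Of 10 other tested targets of Pho4 9 rose and 0 fell, with a median of 1.52, led by PHO5, a secreted acid phosphatase (3.04 ± 0.31), PHM8, a lysophosphatidic acid phosphatase (2.76 ± 0.39), PHM6 (2.59 ± 0.32) and PHO89, a sodium-phosphate cotransporter (2.56 ± 0.32). After centring, where 4.22% of all tested genes were called higher and 5.76% lower, the rises were 0 of 6 for polyphosphate synthesis (median 0.69), 1 of 10 SPX-domain genes, 1 of 13 in inositol supply (INM2, while ITR1, an inositol transporter, fell) and 5 of 10 Pho4 targets. With quantile normalization, where 5.10% were called higher and 5.15% lower, the rises were 4 of 6, 3 of 10, 1 of 13 and 8 of 10 in these lists. The genes were not all the same, since YDR089W, INM1 and FAB1 were then not called. A gene not called as deposited took the place of YDR089W in the polyphosphate and SPX lists.

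For the 6 members with a value in all 25 libraries, the 3 most similar courses were sought among 2609 other genes with a standard symbol and a complete course. Likeness was the root mean square difference of the log2 courses over the 24 no-phosphate samples after each course was set to its own mean. All points share their libraries, so a disturbance of 1 library enters each course. PLC1 was closest to GRX1, PRY1 and SDT1 (0.20, 0.21 and 0.21, the median of all candidates being 0.70), and KCS1 to GRX1, INH1 and ATG22 (0.22, 0.22 and 0.24, median 0.69). DDP1 was closest to PHO84, QCR10 and ISN1 (0.19, 0.20 and 0.20, median 0.59). PPN1 was closest to ARF2, GLO2 and COQ9 (0.13, 0.14 and 0.15, median 0.41), VIP1 to ATP16, RAD33 and ASH1 (0.20, 0.23 and 0.24, median 0.47) and PPX1 to GET1, PIS1 and RPB2 (0.18, 0.18 and 0.19, median 0.48). Without the shallowest library, at 345 min, the closest genes of PLC1 and DDP1 stayed among their first 3. COQ9 then ranked 6 for PPN1, ATG22 ranked 4 for KCS1, RAD33 and ASH1 ranked 5 and 8 for VIP1, and PIS1 and RPB2 ranked 9 and 12 for PPX1.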

How the data were processed

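RNA of 25 libraries of 1 strain was sequenced. The table holds 1 log2 RPM value per gene and library (the log2 of reads per 1000000 reads), deposited by the authors. Bowtie and build R64 are named, per the submitters' processing notes. For the counter, the annotation and strand, nothing is given in the sources used here. Scaling to the earliest sample, of which the design text speaks, is not visible: with the log undone, the median column sums to 1000000 RPM. The lowest value of each column corresponds to 10 reads, so a missing value means under 10 reads. In the values under 200 reads, 94.9 to 97.5% were whole reads within 0.02, by library, and depth was taken from this step. Of 6701 rows, 51 had no name and 2 shared one, and of the 6648 names 5915 were RefSeq names, 47 were synonyms there and 686 had no match.

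Log2 RPM values were fitted with limma 3.58.1 in R 4.3.3, without a pseudocount, on 4742 genes with at least 4 values in each window and a value at 0 min, all 8 members among them. One fit held 0 min and the 4 windows, one the spans of 3 samples, and one a spline of time. Calls needed a log2 difference of at least 1 and p under 0.05 after Benjamini-Hochberg adjustment. Because the unit is log2 RPM, the reads recovered from it entered only as voom weights, an alternative. The other alternatives were centring, quantile normalization, log2(RPM + 1), other filters, missing values set to 5 reads, a lag-1 correlation, other spline degrees, every second sample, and leaving out single or several libraries. Counting intervals are exact (Clopper-Pearson, 95%) and cover counting error only.

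Besides the 8 members, the text names genes called for 285 to 360 against 15 to 90 min, at most 4 per list by size, and the 3 closest courses of each complete member. SIW14, ITR1 and the marker genes fall outside this rule, and ITR1 was chosen after its values were seen. The spans of 3 samples were chosen with earlier results of these data known. Such results were also known when the members, which were chosen by name, and the lists were drawn up. Promoters and coding sequences were searched on both strands of the RefSeq genome of build R64.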

Additional observations from a re-analysis of the deposited data

Results flagged for a closer look

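Of 32 groups of 5 or 6 samples examined among the 8 transcripts, 4 held a sample that lay far from the others of its window. Independent draws at 1 level would give about 1 group in 20. The samples of a window are consecutive times of a course, so that rate need not hold here. PPX1 reached 7.586 log2 RPM at 120 min from 819 reads, while the other samples of 105 to 180 min lay between 7.251 and 7.352. ARG82 lay at 3.194 log2 RPM in the same library from 39 reads, and the next lowest sample of the window was at 4.391. DDP1 lay at 6.801 log2 RPM at 15 min from 329 reads, the first sample without phosphate, with the next lowest of the 15 to 90 min window at 7.219. KCS1 reached 8.627 log2 RPM at 360 min from 206 reads, the last sample, with the next highest of its window at 8.031. The causes of these values were not tested.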

How the results depend on the processing

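Results were recomputed under 38 settings. Of 1978 values of the 8 transcripts under an alternative, 1905 kept their direction and side of the thresholds, 32 lost a call, 15 gained one and 26 changed sign. No paired analysis was possible because the labels give no replicate numbers shared between groups.

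Without the libraries at 105, 120 and 135 min, 49 genes and 1 member were called for 15 to 90 against 0 min, 226 and 1 for 105 to 180 against 15 to 90, 127 and 0 for 195 to 270 against 105 to 180, and 9 genes for 285 to 360 against 195 to 270. Centring left 473 genes for 285 to 360 against 15 to 90 min, 760 genes and 3 members for 285 to 360 against 0 min, and 0 members for 195 to 270 against 105 to 180. Quantile normalization gave 486 genes, 624 genes and 3 members, and 0 members in these comparisons, 4 genes for 15 to 90 against 0 min, 3 for 285 to 360 against 195 to 270 and 29 for 105 to 135 against 30 to 60. Every second sample gave 2 genes for 15 to 90 against 0 min, a lag-1 correlation 138 for 105 to 135 against 30 to 60 min, and no filter 1 for 285 to 360 against 195 to 270. With only genes valued in all 25 samples, which are fewer, 1 member was called for 195 to 270 against 105 to 180 and 1204 genes along the course. Leaving out 1 library gave 0 to 4 members for 195 to 270 against 105 to 180 and 22 to 170 genes for 105 to 135 against 30 to 60.

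Changes of sign were among differences that did not pass. PPX1 was −0.13 centred and −0.040 quantile-normalized for 195 to 270 against 105 to 180, −0.32 and −0.23 for 195 to 225 against 105 to 135, and −0.66 and −0.52 for 285 to 360 against 0 min, with −0.0045 under a lag-1 correlation and −0.15 with every second sample. ARG82 was −0.10 for 15 to 90 against 0 min and −0.035 for 195 to 270 against 105 to 180 with every second sample, and −0.015 for 285 to 360 against 15 to 90 with quantile normalization. KCS1 was 0.014 centred for 105 to 135 against 30 to 60. With 1 library left out, PPX1 ran from −0.088 to 0.095 for 285 to 360 against 0 min and from −0.049 to 0.16 for 195 to 225 against 105 to 135. For 105 to 135 against 30 to 60 it ran from −0.036 to 0.14, KCS1 from −0.26 to 0.025, VIP1 from −0.054 to 0.16 and PLC1 from −0.066 to 0.33. Apart from the smaller filters, the cause was not tested. IPK1 at 330 min and ARG82 at 345 min had under 10 reads and so no value.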
